A study of Mus musculus with 44 samples.

Results

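The mitochondrial ribosomal proteins are the nuclear-encoded protein subunits of the ribosome that works inside mitochondria. They were taken as all protein-coding genes whose GENCODE M21 symbol (mouse genome GRCm38) begins with Mrpl or Mrps followed by a digit, and each was found in the count table by its Ensembl identifier. This gave 78 of the 54446 genes in the table. By textbook classification 51 of them encode proteins of the large subunit and 26 proteins of the small subunit. The remaining gene, Mrps36, carries the family's name but is known as a component of the 2-oxoglutarate dehydrogenase complex.

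RNA was sequenced from liver and whole brain of male C57BL/6 mice that came from the National Institute on Aging colony. The 44 libraries fell into 6 groups of unequal size. Brains of 12 months came from mice fed a control diet (CD, n = 5) or a ketogenic diet (KD, almost free of carbohydrate) for a single week (n = 7). Brains of 26 months (n = 8 per diet) and livers of 26 months (n = 8 per diet) came from mice kept from 12 months of age either on CD or on a cyclic KD, in which KD and CD weeks alternated. Tissue of the cyclic KD mice was taken during a CD week, so they and their controls were eating the same diet at collection. The labels give no genotype and do not tie a liver to the brain of the same mouse. Total counts were 6879726 to 12682087 per liver library and 7447742 to 12744415 per brain library. Counts of Gm10800, a predicted gene, made up 1.23 to 2.39% of the total in 5 of 8 KD livers (10, 11, 14, 15 and 16) and 1.61% in CD liver 1, against 0.00173 to 0.0058% in the other 10 livers. These 6 livers had 42868 to 47702 genes with a count, and the other livers 25030 to 28259, so this difference between libraries runs largely with diet. In CD brains it runs with age, at 0.0551 to 1.22% of counts at 26 months and 0.000462 to 0.00134% at 12 months.

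Mitochondria keep a small genome of their own that encodes core subunits of the respiratory chain and the ATP synthase, 2 ribosomal RNAs (mt-Rnr1 and mt-Rnr2) and a set of transfer RNAs. The messenger RNAs of that genome are translated by the mitochondrial ribosome, whose proteins are all made in the cytosol and imported. Part of these proteins descend from the bacterial ancestor of mitochondria and have a bacterial counterpart, while others were added during the evolution of mitochondria. Liver and brain both depend on oxidative phosphorylation, and ketone bodies, which the liver makes from fat during a ketogenic diet, are oxidised in brain mitochondria. Transcription of genes for mitochondrial proteins is known to involve NRF1 and the ETS-family factor GABP (its alpha subunit is Gabpa), both with sites near start sites, and YY1.

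Of the 78 genes, 46 encode proteins with a bacterial counterpart, 30 in the large and 16 in the small subunit. The other 31 ribosomal members are additions of mitochondria, 21 in the large and 10 in the small subunit. The symbols Mrps30 and Mrps18a name proteins that were placed in the large subunit once its structure was known. The genes lay on 17 chromosomes. Their median exon length was 2394 bases, against 3498 over all 21951 protein-coding genes, and their median span was 7899.5 against 17403 bases. The start of 33 of the 78 genes (42.3%) lay within 1000 bases of the start of a protein-coding gene on the opposite strand, an arrangement found for 2384 of the 21951 protein-coding genes (10.9%). Members in this arrangement included Mrpl46 and Mrps11, which face each other. The promoter table from RefSeq (assembly GRCm38.p6, 250 bases before to 50 bases after the start) held windows for 69 of the 78 genes. Exact matches on either strand were searched for NRF1 (GCGC, 2 bases of any kind, then GCGC), ETS (CCGGAAG), YY1 (AAGATGGC), the GC box (GGGCGG) and the E-box (CACGTG). Matches of different motifs may overlap.

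An ETS match was held by 25 of the 69 windows (36.2%), against 9.12% of all 27025 windows and 12.3% of the 16522 windows of protein-coding genes. For NRF1 the count was 14 of 69 (20.3%), against 6.43% and 9.15%, and for YY1 it was 12 of 69 (17.4%), against 2.88% and 3.29%. Any of these 3 motifs was found in 43 member windows (62.3%), against 16.5% of all windows and 22.0% of those of protein-coding genes. The GC box (34 of 69, 49.3%, against 48.0% of protein-coding windows) and the E-box (5 of 69, 7.25%, against 8.11%) lay close to the background. YY1 matches stood in 8 of the 30 windows of genes with a facing neighbour and in 4 of the other 39. Facing neighbours were set from GENCODE starts but windows from RefSeq starts, which lay within 100 bases of each other for 49 of the 69 genes. Among genes with a YY1 match the starts lay 2496 bases apart for Mrpl36, of the 8, and 3185 for Mrpl35 and 7979 for Mrps24, of the 4. The 150 bases before the RefSeq start are given below for 6 members picked by hand as examples. They run 5' to 3' on the strand of the gene, with matches of NRF1, ETS or YY1 in capitals. Mrpl12 carries an NRF1 match, Mrpl52 an ETS match, Mrpl43 a pair of ETS matches and Mrps11 a YY1 match. Mrpl41 and Mrpl48, both lower in liver than in brain, are shown as windows without a match in these bases. They do not stand for all members lower in liver. In the full windows 4 of those held a match (Mrps26, Mrpl3, Mrps33 and Mrpl58) and 6 did not. Of members higher in liver, 24 held a match and 10 did not, Mrpl24 among the latter.
Mrpl12, chr11:120484487-120484636, + strand: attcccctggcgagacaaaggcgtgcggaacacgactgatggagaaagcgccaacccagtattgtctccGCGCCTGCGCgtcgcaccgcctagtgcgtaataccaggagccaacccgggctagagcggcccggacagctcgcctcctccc
Mrpl52, chr14:54426759-54426908, + strand: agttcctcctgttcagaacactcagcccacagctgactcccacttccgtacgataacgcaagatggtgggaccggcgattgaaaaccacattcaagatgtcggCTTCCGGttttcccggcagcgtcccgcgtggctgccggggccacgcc
Mrpl43, chr19:45006443-45006592, - strand: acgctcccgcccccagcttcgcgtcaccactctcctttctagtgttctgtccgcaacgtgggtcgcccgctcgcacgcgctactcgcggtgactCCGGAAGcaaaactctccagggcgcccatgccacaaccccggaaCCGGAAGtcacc
Mrps11, chr7:78782981-78783130, + strand: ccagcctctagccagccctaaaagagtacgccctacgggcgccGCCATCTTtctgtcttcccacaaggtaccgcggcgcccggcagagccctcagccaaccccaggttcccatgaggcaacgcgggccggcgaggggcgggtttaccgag
Mrpl41, chr2:24975099-24975248, - strand: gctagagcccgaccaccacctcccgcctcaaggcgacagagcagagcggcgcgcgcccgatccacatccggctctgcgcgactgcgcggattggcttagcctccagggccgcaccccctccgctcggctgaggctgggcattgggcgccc
Mrpl48, chr7:100608302-100608451, - strand: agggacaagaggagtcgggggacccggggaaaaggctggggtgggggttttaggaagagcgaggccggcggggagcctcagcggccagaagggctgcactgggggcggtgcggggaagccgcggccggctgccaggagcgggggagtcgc
A match is a run of letters, not an observed binding site, and the absence of a match says only that these letters are not in the window.

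All but 1 of the 78 genes had enough counts to be tested in every comparison. The exception was Mrpl53, whose count was 0 in all 44 libraries and whose exons largely coincide with the gene model Gm42688 on the same strand. A count of 0 allows up to 3 counts in a library, for counting error only, and no expression can be stated for this gene. Levels are given as CPM, the usual scaling of counts to the effective size of the library, and levels of different genes are compared only as CPM per kilobase of exon. On that scale the 77 members spanned 1.12 to 42.6 in CD livers of 26 months (median 7.44) and 0.606 to 36.3 in CD brains of the same age (median 6.31). Large-subunit genes had a median of 8.29 in liver and 6.49 in brain, and small-subunit genes 4.83 and 5.01 CPM per kilobase. The order of the genes was alike in the 2 tissues (Spearman's rho = 0.839 across the 77 genes, which share libraries and gene lengths and are not independent replicates).

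In liver the highest level per kilobase was that of Mrpl34 (42.6 ± 19.3, SD, n = 8), followed by Mrps21 (24.9 ± 6.67), Mrpl14 (23.1 ± 11.3) and Mrps24 (21.5 ± 8.41). The spreads of these 4 overlapped. In brain Mrpl41, a large-subunit protein added in mitochondria, stood first at 36.3 ± 6.08 CPM per kilobase (n = 8), ahead of Mrpl34 (19.4 ± 3.74), Mrps21 (14.2 ± 2.50) and Mrpl10 (13.9 ± 1.32), the last being the protein that anchors the factor-recruiting stalk. The spreads of Mrpl34 and Mrps21 overlapped, as did those of Mrps21 and Mrpl10, whereas those of Mrpl34 and Mrpl10 did not. The same Mrpl41 held place 13 in liver (16.1 ± 4.0). Mrps10 (1.12 in liver, 0.606 in brain) and Mrps25 (1.19 and 1.51) had the lowest or nearly the lowest level per kilobase in both tissues, and Mrpl23, a protein at the exit of the peptide tunnel, had 2.21 and 1.68. In addition to them, Mrpl47 (1.93) was among the lowest 4 in liver and Mrpl33 (1.53) in brain. Exon length here is the union over all annotated transcripts. With the median length of protein-coding transcripts, chosen after the data had been seen, Mrpl33 moved from place 75 to 13 and Mrpl23 from 74 to 38 in brain, whereas Mrpl41 kept the first place. For Mrps10 the union is 8079 bases and the median coding transcript 1018, so its low level per kilobase depends strongly on the length used. For Mrps25 these lengths are 6576 and 6073 bases.

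**Figure D1:**
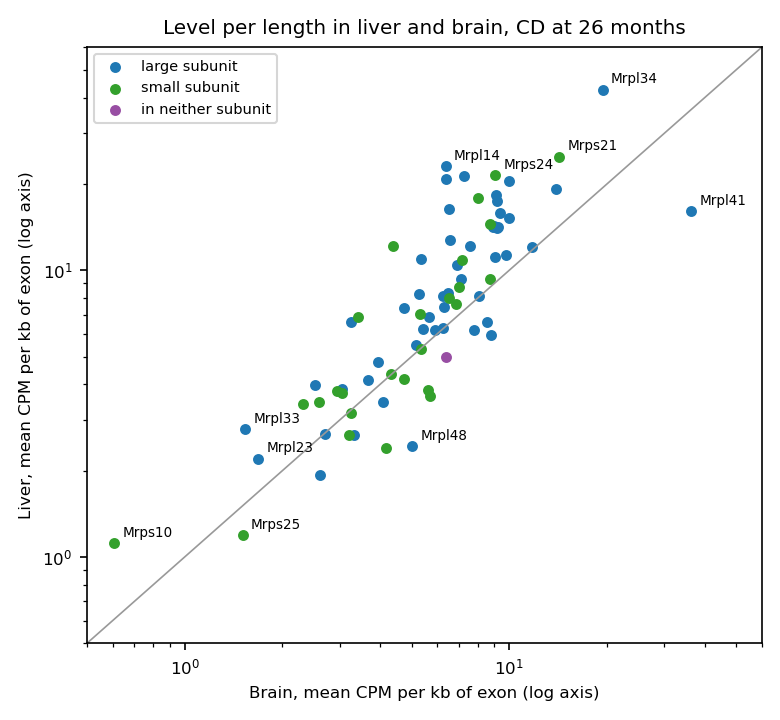
Mean level of each tested member in CD livers (vertical axis) against CD brains (horizontal axis) of 26 months, both as CPM per kilobase of exon on log axes, with the line of equality. The levels spanned 1.12 to 42.6 in liver and 0.606 to 36.3 in brain, and Mrpl41 lies far below the line.

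Libraries of the same kind differed most among CD livers. The ratio of a member's highest to its lowest CPM had a median of 1.97 over the 8 CD livers (1.24 to 4.59 across members), 1.52 over the 8 KD livers (1.19 to 2.003) and 1.54 over the 28 brains (1.25 to 2.32). Over all 16 livers it was 2.05. Within the CD livers of 26 months the SD of log2 CPM had a median of 0.377 across members, against 0.160 in CD brains. The most variable members in CD liver were Mrpl38 (SD 0.828), Mrpl14 (0.773), Mrps7 (0.727) and Mrpl15 (0.696), and in CD brain Mrpl46 (0.329), Mrps6 (0.294), Mrpl34 (0.288) and Mrps34 (0.271). Without counting by strand, which the sources used here do not state, reads of Mrps34 cannot be told apart from those of Mapk8ip3, which overlaps most of its exons on the opposite strand. Exons of Mrpl46 overlap those of Mrps11 on the opposite strand as well.

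Summed over the members, CD livers 1 to 8 reached 1675, 1965, 995, 1836, 1193, 1075, 1268 and 1779 CPM. Livers of cyclic KD mice 9 to 16 reached 1466, 1267, 1623, 1399, 1679, 1701, 1663 and 1649 CPM. CD livers 3, 5, 6 and 7 were thus the lowest of the group, and KD livers lay inside the CD range. CD liver 3 held the lowest value of its group for 46 of the members and CD liver 6 for 18, while CD liver 2 held the highest for 45. Among KD livers number 10 was the lowest for 47 members. The same CD livers 3, 5, 6 and 7 also held the highest summed Kupffer cell markers of the group, at 5937, 5543, 5853 and 5749 CPM against 239 to 1231 CPM in the other 4, and the smallest shares of counts from the mitochondrial genome's protein-coding genes, at 1.69, 1.77, 1.67 and 1.88% against 2.95 to 3.93%. Their summed hepatocyte markers were 15940, 18622, 19184 and 23852 CPM, while the rest of the group had 36793 to 44070 CPM. In bulk tissue, fewer cells of a type and less RNA per cell cannot be told apart. The part of cell composition in the members' values was not tested.

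**Figure D2:**
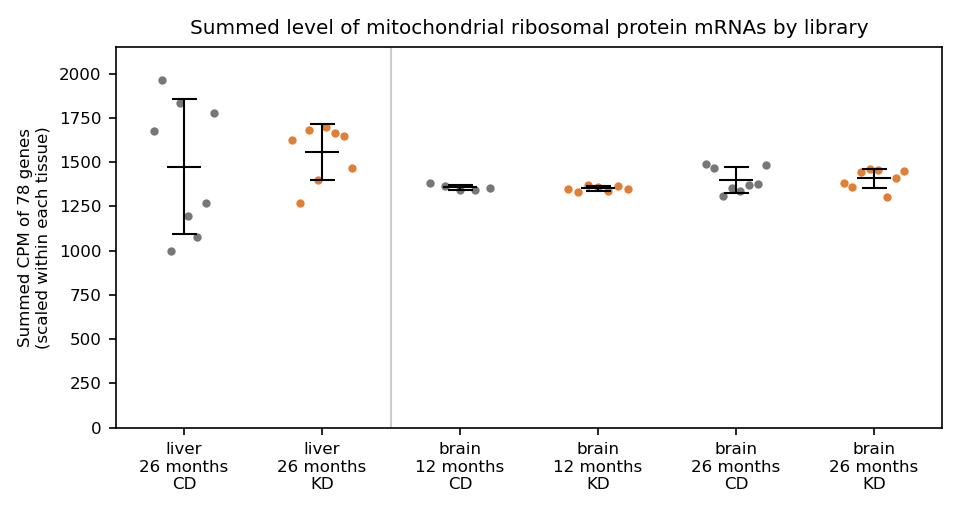
Summed CPM of the members in each library by group, with grey for CD and orange for KD, each point a library and bars the mean ± SD. CD livers range from 995 to 1965 CPM and KD livers from 1267 to 1701 CPM, while the 28 brains lie between 1304 and 1491 CPM, on scales set separately for each tissue.

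Members took 0.120 to 0.168% of all counts in CD livers, 0.145 to 0.157% in KD livers and 0.129 to 0.151% in brains. The ratio of summed small-subunit to summed large-subunit CPM was 0.378 to 0.406 in CD livers, 0.378 to 0.422 in KD livers and 0.407 to 0.439 over the brain groups. CD livers thus differed more in the summed level than in the ratio of the subunits.

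The largest differences among members were between the tissues. Livers and brains of CD mice of 26 months, which share diet and age, were compared on a scale set over these 16 libraries. Of 77 members tested, 41 were higher in liver, 11 were lower and 25 were not called (edgeR quasi-likelihood test, Benjamini-Hochberg adjusted over all genes). Among all 20463 genes, 36.0% were called higher and 41.0% lower, so that most genes differ between these organs and a single call is no mark of the family. The members' median log2 fold change was 0.37 against −0.07 over all genes, and 59 of 77 (76.6%) were above 0 against 48.0% of all genes. With libraries scaled by total counts alone, 28 members were higher and 20 lower, the members' median was 0.09 and that of all genes −0.32. Marker genes matched the tissue labels, since all 10 hepatocyte markers were higher and all 10 neuron markers lower in liver.

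By origin, 30 of 46 members with a bacterial counterpart were higher in liver and 4 were lower (median 0.53), against 11 higher and 6 lower of 30 members added in mitochondria (median 0.26). The difference between these classes was not tested. In the large subunit 29 of 50 were higher and 6 lower (median 0.39), and in the small subunit 12 of 26 were higher and 4 lower (median 0.31). For the proteins of the cytosolic ribosome, measured in the same libraries, 78 of 81 were higher in liver and none lower (median 0.98, edgeR).

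Among the members higher in liver, Mrpl14 and Mrpl12 had some of the largest differences. Mrpl12 is the stalk protein that recruits translation factors to the large subunit, and Mrpl14 lies at the interface of the subunits. Mrpl14 had 9.06, 21.6 and 34.2 CPM (lowest, median and highest of 8 livers) against 4.87, 5.98 and 7.63 CPM in 8 brains, a log2 difference of 1.85 (SE 0.279, adjusted p = 1.35e-05). Mrpl12 had 15.8, 29.7 and 51.1 CPM in liver and 9.47, 11.2 and 12.4 in brain, a log2 difference of 1.55 (SE 0.236, adjusted p = 1.53e-05). For both genes every liver lay above every brain, although the livers themselves spread over a wide range. Exons of Mrpl14 overlap Tmem63b and those of Mrpl12 overlap Gm16755, with the strand of counting not known.

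Mrpl52, added in mitochondria, had the smallest p of the members. It lies at chr14:54426909-54429756 and measured 18.8, 20.9 and 29.1 CPM in liver against 5.53, 6.81 and 8.65 CPM in brain (log2 difference 1.70, SE 0.135, adjusted p = 7.11e-09). Mrpl18, which belongs to the central protuberance of the large subunit, had 15.9, 22.8 and 29.7 CPM in liver and 7.04, 8.81 and 12.4 in brain (1.33, SE 0.163, adjusted p = 1.25e-06). The groups did not overlap for either gene. Exons of Mrpl18 overlap those of Tcp1 on the opposite strand.

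Mrpl24 measured 22.1, 25.8 and 36.9 CPM in liver and 11, 15.4 and 17.1 CPM in brain (log2 difference 0.96, SE 0.135, adjusted p = 6.7e-06). Mrpl33 measured 17.3, 18.7 and 27.2 CPM against 9.47, 11.1 and 12.8 CPM (0.86, SE 0.112, adjusted p = 2.56e-06). Both encode large-subunit proteins with a bacterial counterpart, and neither gene's groups overlapped. Of the small subunit, Mrps28 had 4.68, 8.71 and 14.1 CPM in liver and 2.29, 3.41 and 4.17 in brain (1.46, SE 0.22, adjusted p = 1.33e-05). Mrps18b had 9.89, 13.6 and 18.5 against 5.92, 7.05 and 8.53 CPM (1.0, SE 0.146, adjusted p = 9.62e-06). Again every liver lay above every brain. Exons of Mrpl24 overlap Rrnad1 and those of Mrps18b overlap Gm16279.

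The other 33 members higher in liver had log2 differences of 0.30 (Mrpl20 and Mrps18c) to 1.25 (Mrps24, a small-subunit protein with a bacterial counterpart). Those above 1 were Mrps24, Mrps7 (1.15), Mrpl34 (1.14), Mrpl38 (1.04), Mrpl16 (1.03), Mrpl15 (1.02) and Mrpl36 (1.01). Mrps7, Mrpl34, Mrpl38 and Mrpl15 are also among the members that varied most from liver to liver.

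Members lower in liver were led by Mrpl48 and Mrpl41, both large-subunit proteins added in mitochondria. Mrpl48, at chr7:100545751-100608301, had 15.3, 18.6 and 24.5 CPM in liver and 36.7, 41.2 and 44.0 CPM in brain (log2 difference −1.05, SE 0.107, adjusted p = 1.37e-07). Mrpl41, at chr2:24974117-24975098, had 9.14, 13.8 and 19.2 CPM in liver and 27.7, 30.6 and 44.5 CPM in brain (−1.18, SE 0.154, adjusted p = 2.75e-06). Every brain lay above every liver for both. Exons of Mrpl48 overlap those of Rab6a on the opposite strand, and Rab6a was itself lower in liver (−1.90).

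Mrps26, of the small subunit, had 8.22, 10.2 and 12.8 CPM in liver against 16.0, 18.6 and 19.8 CPM in brain (log2 difference −0.79, SE 0.103, adjusted p = 2.43e-06), with no overlap. Mrpl3, whose bacterial counterpart binds the ribosomal RNA of the large subunit, had 35.0, 38 and 51.3 CPM against 49.7, 59.1 and 66.2 CPM (−0.57, SE 0.0893, adjusted p = 2.08e-05). The highest liver for Mrpl3 exceeded the lowest brain. Smaller differences were those of Mrps5 (−0.64, SE 0.184, adjusted p = 0.00458), Mrps33 (−0.55, SE 0.128, adjusted p = 0.000898), Mrpl47 (−0.44, SE 0.152, adjusted p = 0.0149) and Mrps25 (−0.34, SE 0.119, adjusted p = 0.0164). For Mrps5, Mrps33, Mrpl47 and Mrps25 the libraries of the tissues overlapped. Most exon bases of Mrps25 overlap Nr2c2 on the opposite strand, and part of those of Mrpl47 overlap Ndufb5.

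Members with a particular place or role included Mrpl12 and Mrps18b, described above. Mrpl58, which frees peptides from stalled ribosomes and is built into the large subunit, was lower in liver (−0.37, SE 0.154, adjusted p = 0.0374), as was Mrps36 of the 2-oxoglutarate dehydrogenase complex (−0.36, SE 0.152, adjusted p = 0.0395). Mrps12, of the decoding centre, was higher (0.59, SE 0.192, adjusted p = 0.00987), and so was Mrps18c (0.30, SE 0.117, adjusted p = 0.0269). Mrps30 (−0.02, SE 0.122, adjusted p = 0.889), Mrps18a (0.20, SE 0.129, adjusted p = 0.171) and Mrps6 (−0.02, SE 0.164, adjusted p = 0.901) were not called. Their 95% intervals ran from −0.28 to 0.24 for Mrps30, from −0.07 to 0.47 for Mrps18a and from −0.37 to 0.32 for Mrps6. The calls of Mrps18c and Mrps36 were each lost under 12 of 25 alternatives and that of Mrpl58 under 7, among them leaving out CD liver 6 for Mrps36 (−0.27) and Mrpl58 (−0.26), and CD liver 8 for Mrps18c (0.26). The call of Mrpl47 was lost without a filter on low counts and without CD liver 6 (−0.35, adjusted p = 0.0515), that of Mrps25 without a filter and that of Mrps12 with total counts alone.

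**Figure D3:**
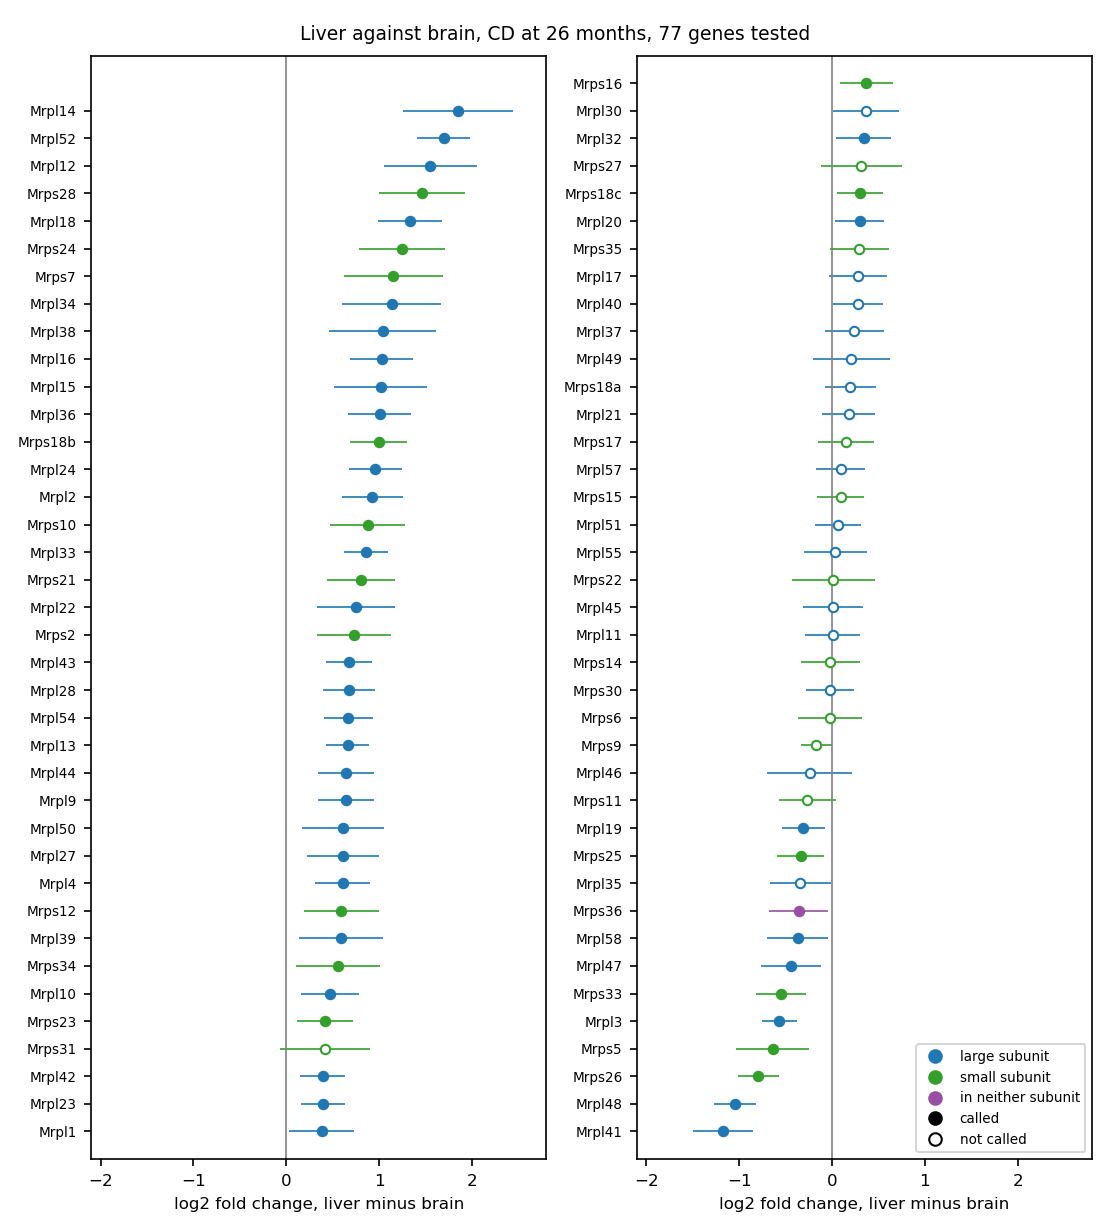
Log2 fold change, liver minus brain, of each tested member in CD mice of 26 months, with bars for the 95% interval, filled symbols for members called at an adjusted p under 0.05 and open symbols for the others, in blue for the large subunit, green for the small subunit and purple for Mrps36. Of 77 members 41 were called higher and 11 lower, from −1.18 (Mrpl41) to 1.85 (Mrpl14).

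On the scale of these 16 CD libraries the members summed to 1221 to 1365 CPM in brains. CD livers 3, 5, 6 and 7 had 1146, 1334, 1223 and 1382 CPM, and CD livers 1, 2, 4 and 8 had 1686, 2234, 2083 and 2046 CPM. Leaving out each library in turn gave 37 to 48 members higher and 7 to 12 lower, with 7 lower when CD liver 6 was left out. With KD in place of CD libraries 45 were higher and 14 lower.

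Facing genes were compared with their members in the tissue contrast. Of the 29 pairs tested, both genes were higher in liver in 7 and both lower in 1, while in 4 pairs the genes were called in opposite directions. Mrpl18 (1.33) faces Tcp1 (1.19), a subunit of the cytosolic chaperonin, and Mrpl36 (1.01) faces Ndufs6 (0.93), a subunit of complex I. Mrpl43 (0.68) faces the mitochondrial DNA helicase gene Twnk (1.68). In contrast Mrpl41 (−1.18) faces Pnpla7 (2.33), and Mrps7 (1.15) faces Gga3 (−0.91). Exons overlap on opposite strands for Mrpl18 and Tcp1 (141 bases), Mrpl36 and Ndufs6 (30), Mrpl43 and Twnk (507) and Mrps7 and Gga3 (127). With the strand of counting not known, reads of such pairs may not be told apart, and their part in like calls was not tested. Genes that start within 1000 bases of each other thus had like calls in some pairs and opposite calls in others. Of all genes 36.0% were called higher and 41.0% lower, and whether a pair shares a promoter was not tested. Among members with an NRF1, ETS or YY1 match 24 of 42 were higher and 4 lower in liver (median 0.38), and of those without 10 of 26 were higher and 6 lower (median 0.12). The difference between these was not tested.

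The remaining genes of the mitochondrial translation machinery were taken from lists. Of 5 mitochondrial ribosomal proteins under other names, 3 were higher in liver and 1 was lower. Gadd45gip1 (log2 difference 0.80, SE 0.244, adjusted p = 0.00695), Aurkaip1 (0.48, SE 0.165, adjusted p = 0.0138) and Chchd1 (0.43, SE 0.158, adjusted p = 0.0211) were the higher ones, and Dap3, a small-subunit protein that binds GTP, was lower (−0.34, SE 0.0984, adjusted p = 0.00474). Ptcd3 was not called (−0.04, adjusted p = 0.715). The calls of Aurkaip1 and Chchd1 were each lost under 3 of 25 alternatives, among them total counts alone (0.19 and 0.14), and that of Dap3 under 1, without a filter on low counts. Of 26 genes for ribosome assembly and ribosomal RNA modification 10 were higher and 5 lower, among them Rbfa (1.59), which matures the small subunit, and Dhx30 (−0.80), an RNA helicase of the assembly granules. Of 14 tested translation factors 9 were higher and 1 lower, with Tufm, which delivers aminoacyl-tRNA, at 1.25 and Guf1 at −0.74.

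Of 22 aminoacyl-tRNA synthetases and related enzymes 12 were higher and 3 lower, with Cars2 at 0.88, Iars2 at 0.84 and Mars2, which charges methionyl-tRNA, at −1.25. All 11 genes for insertion and quality control of the translation products were above 0, and 8 were called higher, including the prohibitin Phb2 (1.92) and the protease subunit Clpx (2.95). Of 17 genes for mitochondrial transcription and biogenesis 11 were higher and 2 lower. Gabpa, the ETS-family factor named above, was higher in liver (1.25), and the coactivator Ppargc1a was lower (−2.08). Neither mitochondrial ribosomal RNA was called, at 0.42 for mt-Rnr1 (SE 0.497) and 0.45 for mt-Rnr2 (SE 0.47). Ribosomal RNA was depleted during library preparation, and together the pair took 0.0144 to 0.281% of the counts of a library.

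The cyclic ketogenic diet was compared with CD in livers of 26 months to ask which differences persist beyond the KD weeks. No member was called, of 77 tested. None of the 18002 genes was called either (0.0% higher and 0.0% lower by edgeR), and at an unadjusted p under 0.05 there were 2792 genes and 0 members. DESeq2 called 86 genes higher and 91 lower, none of them a member. The members' median log2 fold change, KD minus CD, was 0.08 against 0.04 over all genes. Single members ran from −0.18 to 0.28, and 57 of 77 (74.0%) were above 0 against 55.8% of all genes. The 95% interval lay within 1 log2 unit of 0 for all 77 and within 0.5 for 51 of them.

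Mrpl48 had the smallest p among positive values, with 13.2, 16.5 and 23.4 CPM (lowest, median, highest) on CD and 17.4, 20.7 and 24.4 CPM on KD, on the scale of the 16 livers. The groups overlapped (log2 difference 0.25, 95% interval −0.00 to 0.50, adjusted p = 0.326). Mrpl22, Mrpl47 and Mrps30 followed with 0.28, 0.24 and 0.19. Mrpl22 is a protein of the peptide tunnel, and it had 7.39, 14.4 and 19.5 CPM on CD and 14.7, 16.6 and 20.4 CPM on KD, so that the CD livers spread far more than the KD livers.

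Of the negative values, Mrpl3 had 30.4, 34.7 and 45.1 CPM on CD and 27.3, 31.3 and 34.5 CPM on KD (log2 difference −0.18, SE 0.0842, adjusted p = 0.328). The median KD liver lay below the median CD liver, but the groups overlapped. Mrpl23, Mrps25 and Mrpl40 followed with −0.16, −0.12 and −0.12.

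By class the medians in liver were 0.09 for the large and 0.07 for the small subunit, and 0.09 for members both with and without a bacterial counterpart. None of the genes of the 7 other lists of the machinery was called. The smallest p in each was that of Esrra (−0.31, adjusted p = 0.291), Rbfa (−0.31), Wars2 (0.29), Tsfm (0.25), Chchd1 (0.22), Immp2l (0.35) and mt-Rnr2 (1.08, SE 0.697). Beside these, the 10 Kupffer cell markers were all below 0 on KD (median −1.98, 9 at an unadjusted p under 0.05, none called), with summed levels of 239 to 5937 CPM in CD and 255 to 2708 CPM in KD livers. The 6 neutrophil markers tested had a median of −4.17 and the 10 hepatocyte markers one of 0.34. Leaving out a single liver moved the members' median to between 0.02 (without CD liver 3) and 0.14 (without CD liver 2), and it was 0.03 to 0.05 without CD liver 5, 6 or 7 or KD liver 14. Without the 6 livers rich in Gm10800, which left 7 CD and 3 KD livers, the median was 0.03 against −0.03 over all genes, and no member was called. Without a filter on low counts it was −0.03 against 0.82 over all genes.

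In brain, a single week of KD at 12 months was compared with CD to ask for the acute response. No member was called, against 1 gene called higher among 22079 (0.00453%) and none lower (0.0%). At an unadjusted p under 0.05 there were 585 genes and 0 members by edgeR, and DESeq2 called no member. The members' median log2 fold change was −0.01 (range −0.18 to 0.25), and for 76 of 77 the 95% interval lay within 0.5 log2 units of 0.

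Mrpl43 had the smallest p, with 12.0, 9.69, 10.02, 10.5 and 11.7 CPM in CD brains 1, 4, 7, 13 and 16 and 10.7, 12.0 and 14.8 CPM (lowest, median, highest of 7) in KD brains. The groups overlapped (log2 difference 0.18, SE 0.0947, edgeR adjusted p = 1.0). Exons of Mrpl43 also overlap those of Twnk on the opposite strand. Mrps34 (0.25), Mrps24 (0.16) and Mrps30 (0.11) were the next positive ones, and Mrpl18 (−0.18), Mrps11 (−0.17), Mrps33 (−0.14) and Mrps18a (−0.09) were on the negative side. In the lists of the machinery no gene was called, and the values with the smallest p included the inner membrane peptidase Immp2l (−0.42) and the synthetase Vars2 (0.17). Summed member levels were 1343 to 1381 CPM on CD and 1331 to 1371 CPM on KD, a narrow range beside summed hindbrain neuron markers of 1.05 to 103 CPM on CD and 3.17 to 342 CPM on KD.

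CD brains of 26 and 12 months were compared to ask for changes with age. One member, Mrpl41, was higher at 26 months and none was lower. Among all 22079 genes 221 (1.0%) were called higher and 57 (0.258%) lower, so that 1 member in 77 lies near the background. All 8 CD brains of 26 months held more Gm10800 than any of 12 months, as given above, and more genes with a count (32957 to 44304 against 30019 to 31181). Mice ate standard chow before the experimental diets began at 12 months, so the older brains also had a longer time on CD. Age, time on CD and the difference between libraries cannot be told apart. The 5 CD brains of 12 months (1, 4, 7, 13 and 16) had 25.8, 25.0, 25.0, 27.8 and 26.1 CPM of Mrpl41 on the scale of the 28 brains, and the 8 brains of 26 months had 30.3, 33.7 and 47.0 CPM (lowest, median, highest). The groups did not overlap, and brain 3 of 26 months stood above all the rest. The log2 fold change was 0.43 (SE 0.0960, 95% interval 0.23 to 0.63, edgeR adjusted p = 0.0189), and 0.36 without brain 3 (adjusted p = 0.0283). It was 0.46 without the 4 brains richest in Gm10800 (edgeR adjusted p = 0.0131). Of these 4, 3 were KD brains of 26 months, so the age contrast itself lost 1 CD brain. The 7 CD brains of 26 months left still held 0.0551 to 0.483% Gm10800, so this fit does not separate Gm10800 from age. KD brains had 21.8, 23.1 and 30.2 CPM of Mrpl41 at 12 months and 25.5, 29.8 and 34.5 CPM at 26 months. Pnpla7, whose start lies 935 bases from that of Mrpl41 on the other strand, had a log2 fold change of 0.35 with age (SE 0.104, adjusted p = 0.10).

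The Mrpl41 call was lost without CD brain 4, 7 or 16 of 12 months (adjusted p = 0.0566, 0.0653 and 0.0543), without a filter on low counts (0.0564) and with the 2 groups alone (0.0747). Over all alternatives the adjusted p ran from 0.00269 (DESeq2) to 0.290, the last with a replicate block (edgeR). For age that block marks no pairs, since brains of 12 and 26 months come from different mice. The next highest was 0.0747, with the 2 groups alone.

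Mrps24, Mrpl32 and Mrpl54 were the next members on the positive side. For Mrps24 the CD brains of 12 months had 11.2, 11.5, 10.5, 11.2 and 11.6 CPM and those of 26 months 11.5, 13.7 and 19.0 CPM (log2 fold change 0.36, SE 0.107, adjusted p = 0.101). The 2 groups overlapped only at the lowest brain of 26 months. Mrps24 lies beside Urgcp, with which it shares exon bases on the same strand.

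Mrpl32 measured 15.1, 15.4, 14.02, 14.6 and 12.0 CPM at 12 months and 15.02, 16.3 and 18.3 CPM at 26 months (0.21, SE 0.0768, adjusted p = 0.219). Mrpl54 measured 6.57, 5.31, 7.05, 6.72 and 5.90 CPM at 12 months and 6.03, 8.36 and 10.2 CPM at 26 months (0.35, SE 0.133, adjusted p = 0.247). Both groups of values overlapped, and neither gene passed the test. With limma and sample quality weights Mrpl41 and Mrps24 were both called.

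Across the members the median with age was 0.04 against −0.00 over all genes, and 53 of 77 (68.8%) were above 0 against 49.5% of all genes. At an unadjusted p under 0.05 there were 10 members (12.99%), all with positive values, and 2612 of 22079 genes (11.8%), of which 1725 (66.0%) had positive values, so that the members' share lies near the background. Without a filter on low counts the members' median was −0.00 and that of all genes 0.21. Beside Mrpl41, Mrps24, Mrpl32 and Mrpl54 these 10 members were Mrps30, Mrpl34, Mrpl43, Mrps18c, Mrps26 and Mrpl17, at 0.15 to 0.29. On the negative side Mrps21 (−0.20, adjusted p = 0.554), Mrpl18 (−0.12), Mrpl33 (−0.11) and Mrpl9 (−0.09) led. The 95% interval lay within 0.5 log2 units for 72 of 77. Summed levels were 1343 to 1381 CPM at 12 months and 1309 to 1491 CPM at 26 months. No gene of the other 7 lists was called, the smallest p being those of C1qbp (0.18), Cars2 (−0.20) and Oxa1l (0.15). Of 81 cytosolic ribosomal protein genes 4 were called higher, and 78 were above 0 (median 0.17).

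Of the marker lists of cell types, only those of Kupffer cells and oligodendrocytes are given here for age. The lists of neurons, astrocytes, microglia, choroid plexus and hindbrain neurons are not. Of 5 tested genes of the Kupffer cell list, which brain macrophages also express, 4 (C1qa, C1qb, C1qc and Adgre1) rose with age, by 0.55 to 0.83. The 8 oligodendrocyte markers were all above 0 (median 0.44, none called), with summed levels of 2888 to 4475 CPM at 12 and 4050 to 6076 CPM at 26 months. Their part in the values of Mrpl41 was not tested.

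**Figure D4:**
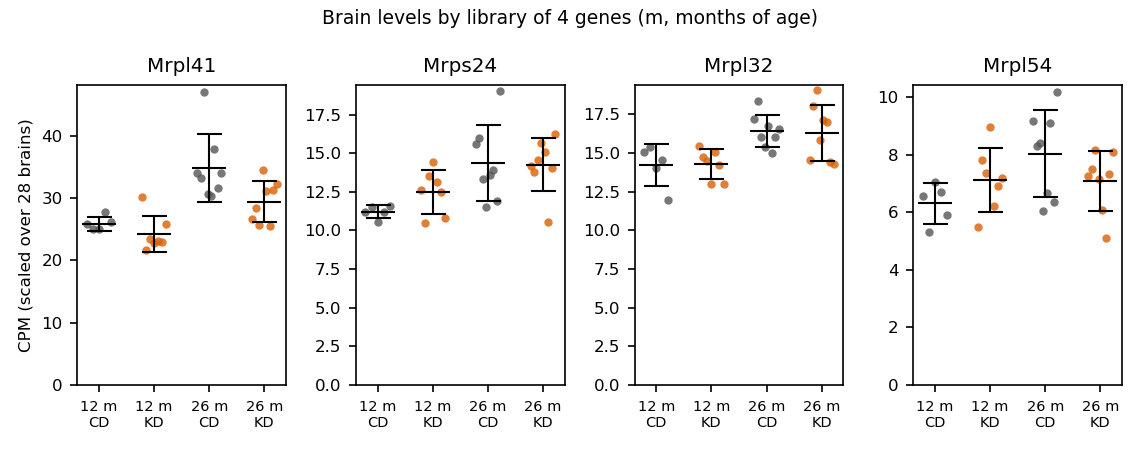
CPM of Mrpl41, Mrps24, Mrpl32 and Mrpl54 in each brain library by group (12 and 26 months, CD and KD), each point a library. Mrpl41 lies at 25.0 to 27.8 CPM in CD brains of 12 months and at 30.3 to 47.0 CPM in those of 26 months, while the groups overlap for the other 3 genes.

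Cyclic KD was compared with CD in brains of 26 months. The comparison uses the same CD brains as the one with age, so the values stand side by side and are not independent. No member was called, and no gene among 22079 (0.0% higher, 0.0% lower). By edgeR 999 genes and 4 members had an unadjusted p under 0.05, and DESeq2 called no gene. The members' median was 0.00, and for all 77 the 95% interval lay within 0.5 log2 units of 0.

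Mrpl41 again had the smallest p. The CD brains had 30.3, 33.7 and 47.0 CPM and the KD brains 25.5, 29.8 and 34.5 CPM, with overlap (log2 difference −0.24, SE 0.0831, edgeR adjusted p = 0.989). Mrps26 (−0.14), Mrpl54 (−0.18) and Mrpl20 (−0.11) followed on this side. The others at an unadjusted p under 0.05 were Mrpl24, with 11.6, 16.7 and 18.7 CPM on CD and 16.5, 18.1 and 19.6 CPM on KD (0.17, SE 0.0736), and Mrpl33, with 9.99, 12.0 and 14.1 CPM on CD and 12.1, 13.3 and 15.6 CPM on KD (0.15, SE 0.0646). The groups overlapped for both, and adjusted p was 0.989. Summed levels were 1304 to 1458 CPM on KD. Of the other lists no gene was called, with the smallest p for Trub2 (−0.13), Twnk (0.21), Tufm (0.17) and Aars2 (0.16).

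**Figure D5:**
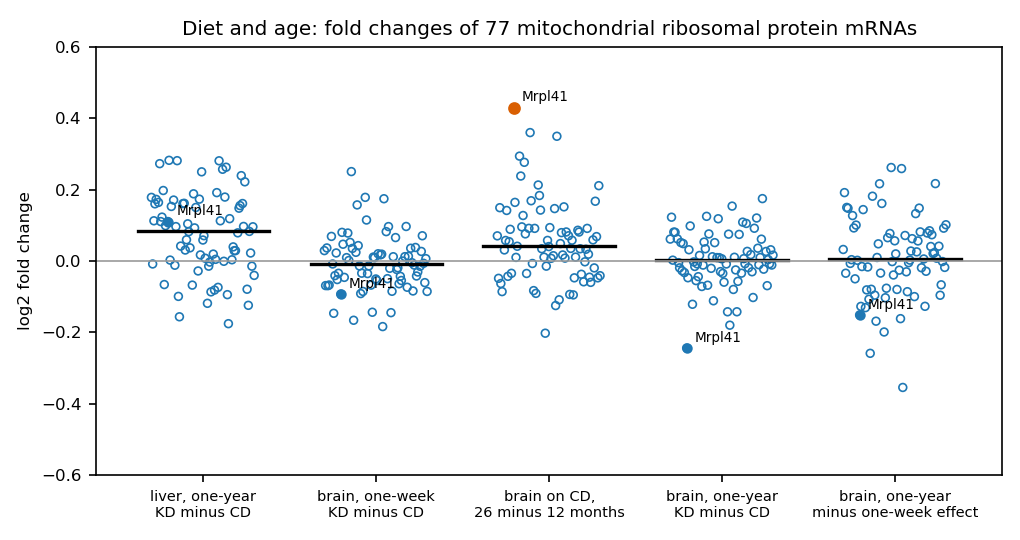
Log2 fold changes of the 77 tested members in liver (KD minus CD) and brain (KD minus CD at 12 months, 26 minus 12 months on CD, KD minus CD at 26 months and the difference of the diet effects), open blue symbols for members not called, orange for the called one and a black line for the median. The medians lie between −0.01 and 0.08, and Mrpl41 with age (0.43) is the single call.

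The diet effects in brain at 26 and 12 months were compared with each other by an interaction term. No member was called and no gene (0.0% higher, 0.0% lower of 22079 by edgeR). At an unadjusted p under 0.05 there were 998 genes and 0 members, and DESeq2 called 2 genes lower, neither a member. Members ranged from −0.35 to 0.26, and 67 of 77 had a 95% interval within 0.5 log2 units of 0. The smallest p was that of Mrpl54 (−0.35, 95% interval −0.72 to 0.01, edgeR adjusted p = 1.0). Mrpl43 (−0.20), Mrps26 (−0.16) and Mrpl38 (−0.10) were further members on this side, and Mrps21 (0.26), Mrpl18 (0.26), Mrps7 (0.22) and Mrpl24 (0.22) on the other.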

How the data were processed

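RNA from liver (16 libraries) and whole brain (28 libraries) was made into libraries (KAPA RNA HyperPrep, Roche) after removal of ribosomal RNA (QIAseq FastSelect) and read on a NovaSeq instrument. Per the study's methods and the submitters' processing notes, reads were trimmed with Trimmomatic, mapped to GRCm38 with STAR and counted per gene with RSEM (versions and the strand of counting are not given in the sources used here). The deposited table holds counts per gene, as whole numbers, which the authors left without normalization, 1 column per library. All columns matched a sample (0 unmatched).

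Genes were filtered with filterByExpr, scaled by TMM and tested with edgeR 4.0.16 in R 4.3.3 (quasi-likelihood F test, Benjamini-Hochberg adjustment over all genes tested, adjusted p under 0.05), fitted over the 16 livers, over all 28 brains (diet at each age, age on CD, and the difference of the diet effects) and over the 16 CD libraries of 26 months. CPM is scaled within each of these fits. Intervals (95%) use the fit's own degrees of freedom. The common biological coefficient of variation was 0.453 in liver, 0.206 in brain and 0.405 across tissues. The paper gives the size of the groups of 26 months in mice, and its timelines carry mouse numbers. Libraries of a group were therefore read as separate mice, and p-values measure the spread between mice. The scripts were tested on simulated data.

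Members, lists, comparisons and named genes were chosen with earlier results of these data known. Genes were named as follows: all called members, or the 8 with the smallest p in each direction where over 20 were called; where fewer than 6 were called, the 4 with the smallest p in each direction; in each tissue the 4 highest, 4 lowest and 4 most variable; members with a particular role; and the genes of the other lists with the smallest p. Other genes were named after their values were seen. Alternatives were RLE or total-count scaling, no filter or at least 10 counts in every library, limma 3.58.1 with quality weights, DESeq2 1.42.0, the 2 compared groups alone, KD libraries in place of CD, a replicate block, leaving out each library, and leaving out libraries rich in the predicted gene Gm10800 (over 0.01% of counts in 6 livers, 5 of them KD, and over 0.5% in 4 brains). Tables were handled with Python 3.11.15, pandas 2.3.3, numpy 2.4.6, scipy 1.17.1 and matplotlib 3.10.9.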

Additional observations from a re-analysis of the deposited data

Results flagged for a closer look

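In 94 groups of values of named members the highest or lowest library was compared with the others by Dixon's criterion, which chance meets in about 1 group in 20, and 4 libraries stood apart. Mrpl3 was 45.05 CPM in CD liver 6, with 36.9 CPM in the next. Mrpl23 was 13.29 CPM in CD liver 2, with 10.04 CPM in the next. Mrps18a was 20.41 CPM in CD brain 4 of 12 months, the lowest of the group, with 22.54 CPM in the next. Mrpl41 was 46.99 CPM in CD brain 3 of 26 months, with 37.93 CPM in the next. Outside the 78 genes, processed pseudogenes that carry the family's names had counts above the limit of 3 that a count of 0 allows. The highest count in a library was 6 for Mrpl23-ps1, 5 for Mrpl48-ps and 16 for Mrps36-ps2. Reads may be split between such copies and Mrpl23, Mrpl48 or Mrps36 by the counting.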

How the results depend on the processing

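Of 348 counts and medians of members under the alternatives, 335 stayed within 1.5 times the reported count or within 1 SD between libraries of the reported median. The medians near 0 did not keep their sign. Of 148 medians 21 changed it, 1 of 23 for diet in liver (−0.026 without a filter), 3 of 19 for diet in brain at 12 months (up to 0.0028), 1 of 22 for age (−0.0032 without a filter), 9 of 24 for diet in brain at 26 months (down to −0.012), 7 of 35 for the difference of the diet effects (down to −0.027) and 0 of 25 between tissues. No member was called in liver with diet, in brain with diet at either age or for the difference of the diet effects under any alternative run. For age in brain the count of members called was 0 without a filter, 2 with limma, 0 with the 2 groups alone, 0 with the replicate block and 0 to 1 when each library was left out. The replicate block gave 36 members higher and 12 lower between tissues. With age it moved the log2 fold change of Mrpl41 to 0.34 (edgeR adjusted p = 0.290). Brains of 12 and 26 months cannot come from one mouse, so for age the block marks no pairs. Same-numbered libraries were not taken as paired, since the labels do not say that equal numbers mark one mouse. Their deviations correlated at −0.25 to 0.20 over 3 numbers with age and at −0.04 to 0.10 over 8 numbers between tissues. For 4 of the 8 numbers the liver correlated best with the brain of its own number. Whether livers and brains share mice cannot be told from these values. Between tissues the count of members lower in liver was 20 with total counts alone, 6 without a filter and 7 to 12 when each library was left out, and the median was 0.087 with total counts alone. The median level per kilobase became 16.2 in liver and 11.7 in brain with the length of protein-coding transcripts, an alternative chosen after seeing the data, as was leaving out the CD liver rich in Gm10800. Of 3220 values of single named genes 3120 stayed the same, 61 were weaker, 12 stronger and 27 reversed. Reversed between tissues were Ptcd3 (0.0011 without a filter, −0.076 to 0.032 with each library left out), Mrps30 (0.021 without a filter, 0.057 with KD libraries, −0.063 to 0.075 with each library left out), Mrps18a (−0.079 with total counts), Mrps6 (0.022 without a filter, 0.088 with limma, 0.038 without the CD liver rich in Gm10800, −0.089 to 0.059 with each library left out) and mt-Rnr1 (−0.0031 to 0.61 with each library left out). In brain, reversed values were those of mt-Rnr1 (diet at 12 months −1.14 to 0.42 and age −0.79 to 0.071 with each library left out), mt-Rnr2 (diet at 26 months −0.032 with limma and −0.46 to 0.32 with each library left out, difference of diet effects −0.28 to 1.26) and Ptcd3 (difference of diet effects −0.0044 with limma). The cause was not tested. At 6879726 to 12744415 counts per library Mrpl53 could not be measured.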
